A study of Mus musculus with 12 samples.

Results

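The Wnt ligands Wnt2 and Wnt5a, the R-spondin Rspo3 and the secreted modulators Sfrp1, Sfrp2, Sfrp4, Sfrp5, Dkk2, Dkk3 and Wisp2 were followed in single-cell RNA-seq of the stromal vascular fraction (SVF) of mouse white fat. These 10 genes, of 31053 counted, were chosen as a named list, and Wnt5a, Dkk2 and Sfrp4 entered it because earlier readings of these data had shown them to shift between groups. Those 3 are therefore described by their values with no test, and tests between groups are given for the other 7. SVF came from epididymal (eWAT) and inguinal (iWAT) white adipose tissue of male mice aged 12 weeks. WT-Veh mice were C57BL/6J given vehicle. ob/ob-Veh mice were Lepob/Lepob, which lack functional leptin and are obese, given vehicle. ob/ob-Rosi mice were Lepob/Lepob given rosiglitazone, a PPARγ agonist, at 30 mg/kg by gavage morning and evening for 3 days. Vehicle was methylcellulose by the same route, and no WT group with rosiglitazone was analysed. Each group had 2 biological replicates per depot, which makes 12 libraries.

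Wnt ligands are secreted lipid-modified proteins that bind Frizzled receptors, alone or together with Lrp5 or Lrp6. In the canonical branch this stabilises β-catenin, which acts with TCF/LEF factors on target genes, and in fat the canonical branch is known to hold back adipocyte differentiation. Wnt5a is the best-known ligand of the β-catenin-independent branch. R-spondins raise the number of Frizzled receptors at the cell surface. Secreted frizzled-related proteins (Sfrps) bind Wnts and Frizzleds outside the cell, and Dickkopf proteins such as Dkk2 act on Lrp5/6, while Dkk3 is the divergent member of that family. Wisp2, also called Ccn5, is a matricellular protein first described as a Wnt-induced gene. All of them act between cells, so a transcript level in a sender cell says nothing of the signal that the receiving cell reads.

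Libraries held 20132553 to 92475986 UMIs, and 6472 to 17500 cells per library passed the filters of the study's methods, 126095 in all. Cells were clustered without the Wnt genes and classes were rebuilt from markers, so a class name carries the suffix "-like". Progenitor-like cells numbered 2493 in eWAT and 7021 in iWAT, preadipocyte-like cells 6038 and 5817, and Fmo2 stromal-like cells 1778 and 1720. A further 12459 adipose progenitor cell (APC)-like cells fitted no class and stayed unnamed, between 9.07% and 64.8% of the APC-like cells of a group's libraries. The highest such shares were 64.8% in iWAT ob/ob-Veh replicate 1 and 55.6% in eWAT ob/ob-Rosi replicate 2. In iWAT the share was 12.1% to 19.3% in WT-Veh, 45.9% to 64.8% in ob/ob-Veh and 9.07% to 10.4% in ob/ob-Rosi. In eWAT it was 43.5% to 45.8%, 31.7% to 36.6% and 39.6% to 55.6% in the same order. The named iWAT classes thus held a smaller part of the APC-like cells in ob/ob-Veh than in the other groups. A mesothelial-like class was found in eWAT (1446 cells). iWAT had none at the lineage level, but 13 of its APC-like cells, 11 of them from ob/ob-Rosi replicate 1 and 2 from WT-Veh replicate 1, formed a cluster led by Upk3b, Gpm6a and Msln at other resolutions. The 8 mesothelial markers summed to 552.6 CPM in the iWAT Fmo2 stromal-like cells of ob/ob-Rosi replicate 1, 65.7 CPM in those of WT-Veh replicate 1 and at most 8.79 CPM in the other 4 libraries, and the part of these cells in the iWAT levels was not tested. Median UMIs per cell ran from 1132 to 4961, and the iWAT library of WT-Veh replicate 1, the shallowest, held 420 APC-like cells. The Lepob allele leaves a transcript, so counts cannot read the genotype. Pairs of libraries shared 0.191% to 3.29% of the barcodes of the smaller one.

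Levels are given as CPM, a gene's UMIs scaled to 1000000 UMIs of the class in a library, replicate 1 before replicate 2. They come from 3′ ends and are not scaled to transcript length, so levels are not compared between genes. A gene was called changed if its edgeR adjusted p (Benjamini-Hochberg over all genes tested) did not exceed 0.05 and its level moved 1.1-fold or more. The ob effect is ob/ob-Veh against WT-Veh and the Rosi effect is ob/ob-Rosi against ob/ob-Veh. Both rest on the same 2 ob/ob-Veh libraries, so opposite signs of the effects are not independent of each other. With 2 mice per group the p-values rest on the spread between these mice. edgeR moderates that spread toward a trend over all genes, so each p-value draws on other genes as well. The fits hold no replicate term unless one is named, and calls gained with one are given in the closing sections. Differences between cell classes are descriptions with no test.

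RefSeq promoter windows (GRCm38.p6) were at hand for 4 of the 10 genes, Wnt2, Sfrp2, Sfrp5 and Dkk2. Of these, the windows of Wnt2, Sfrp2 and Dkk2 are shown. None was at hand for Dkk3 or Rspo3, whose group differences are among the largest described further on. Capitals mark a GC box (GGGCGG on either strand) or a TATA box (TATAAA on either strand), all sequences run 5′ to 3′ on the gene's strand, and each ends at the base before the start of transcription. For Wnt2, at chr6:18030586-18030695 on the minus strand, only the 110 bases before both the RefSeq and the GENCODE start are printed. Sfrp2 is at chr3:83766071-83766320 on the plus strand and Dkk2 at chr3:132085042-132085291 on the plus strand, 250 bases each.
Wnt2: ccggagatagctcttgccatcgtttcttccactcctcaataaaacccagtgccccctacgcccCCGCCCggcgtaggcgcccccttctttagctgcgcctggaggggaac
Sfrp2: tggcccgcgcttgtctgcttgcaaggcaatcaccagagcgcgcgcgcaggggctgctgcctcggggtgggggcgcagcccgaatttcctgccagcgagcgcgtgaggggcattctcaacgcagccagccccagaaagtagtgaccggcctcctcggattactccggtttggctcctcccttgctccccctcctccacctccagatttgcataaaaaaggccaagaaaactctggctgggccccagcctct
Dkk2: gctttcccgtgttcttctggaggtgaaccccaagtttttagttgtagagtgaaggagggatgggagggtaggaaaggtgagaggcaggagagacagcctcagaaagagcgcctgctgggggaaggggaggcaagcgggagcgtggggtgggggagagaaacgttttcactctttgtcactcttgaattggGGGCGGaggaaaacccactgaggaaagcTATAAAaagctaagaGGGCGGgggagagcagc

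Wnt2 held 1 GC box in its window, Dkk2 held 2 and a TATA box, Sfrp5 held 1 GC box and Sfrp2 held neither. Among 32851 RefSeq promoters of 250 bases, 32.7% held a GC box and 12.4% a TATA box. The core of a TCF/LEF element (CTTTGA on either strand) was in 13.8% of promoters and the hexamer of nuclear receptor sites (AGGTCA on either strand) in 14.0%, and neither was in the windows of these 4 genes. A match is a description of letters only.

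The genes lie apart in the genome (GENCODE, GRCm38), with Sfrp2 and Dkk2 alone on a shared chromosome. Wnt2 is at chr6:17988940-18030585 (-), Wnt5a at chr14:28504750-28527448 (+) and Rspo3 at chr10:29452416-29535867 (-). The Sfrps are at chr8:23411502-23449632 (+) for Sfrp1, chr3:83766321-83774316 (+) for Sfrp2, chr13:19623104-19632994 (+) for Sfrp4 and chr19:42197971-42202252 (-) for Sfrp5. Dkk2 is at chr3:132085292-132180304 (+), Dkk3 at chr7:112116017-112159057 (-) and Wisp2 at chr2:163820861-163833146 (+). Wnt5a, Rspo3 and Sfrp2 overlap annotated genes of the other strand, and Rspo3 also overlaps Gm20276 on its own strand, so a share of their reads could be assigned differently by another counting.

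In eWAT, each member called in both effects was called in opposite directions. Of the 7 genes open to a test, 5 passed the filter on low counts in progenitor-like cells: Sfrp1 was called higher in ob/ob-Veh than in WT-Veh, Wnt2, Dkk3 and Wisp2 were called lower, and 3.5% of all genes tested were called. The Rosi effect there was called for 3 of the 5, Wnt2 and Dkk3 higher and Sfrp1 lower, against 2.88% of all genes. In preadipocyte-like cells 5 were tested as well: the ob effect was called for Rspo3 (higher) and for Sfrp2, Dkk3 and Wisp2 (lower), against 6.22% of all genes, and the Rosi effect for Dkk3 (higher) and Rspo3 (lower), against 4.67%. Fmo2 stromal-like cells had 6 genes tested, with Rspo3 higher and Wnt2, Dkk3 and Wisp2 lower in ob/ob-Veh, against 2.76% of all genes, and with Dkk3 higher and Rspo3 lower after Rosi, against 3.12%. Sfrp2 was the 1 gene called in mesothelial-like cells, lower in ob/ob-Veh (3.39% of all genes called) and higher after Rosi (1.14%). A gene can pass the filter through its high group alone, so these shares are not read as support for the list.

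Set against WT-Veh in eWAT, the ob/ob-Rosi libraries gave an edgeR call for 0 of the 5 tested genes in progenitor-like cells and 0 of the 5 in preadipocyte-like cells, against 0.0116% and 0% of all genes. At an unadjusted p under 0.05 the counts were 0 and 2 (3.53% and 2.68% of all genes). DESeq2 called 0 of the 5 in preadipocyte-like cells (0.00542% of the genes it gave an adjusted p). In progenitor-like cells it called 0.749% of such genes, but gave an adjusted p to Sfrp2 alone of the 5, so its count of 0 there says little. In Fmo2 stromal-like cells edgeR called 0 of 6 as well (0% of all genes), but 4 had an unadjusted p under 0.05, as 1.85% of all genes did (Sfrp1, Sfrp2, Rspo3 and Wisp2, all lower in ob/ob-Rosi than in WT-Veh). With 2 mice per group this does not show that the levels were alike. The median log2 difference of the tested genes in progenitor-like cells was -2.95 for the ob effect and 3.04 for the Rosi effect, beside -0.02 and -0.00 over all genes. It was -1.29 and 0.15 in preadipocyte-like cells and -1.22 and 0.40 in Fmo2 stromal-like cells. In progenitor-like cells both medians were the values of Wnt2 itself. Genes can enter these fits on the strength of their high group, so the medians are not read as support for the list. Their opposite signs are not read as a recovery of the list either, for the reason given where the effects were defined.

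iWAT gave fewer calls. In progenitor-like cells 6 genes were tested: Wisp2 was called higher and Rspo3 lower in ob/ob-Veh, against 3.75% of all genes, and Rosi gave Dkk3 and Rspo3 higher and Wisp2 lower, against 11.9%. In preadipocyte-like cells edgeR called 0 of 5 for the ob effect (1.02% of all genes, with 1 of the 5 and 17.1% of all genes at an unadjusted p under 0.05) and Wisp2, lower, for the Rosi effect (1.03%). Fmo2 stromal-like cells gave 0 of 5 for the ob effect (0.255%, with 4 of the 5 and 15.5% of all genes at an unadjusted p under 0.05, and 1 by DESeq2 against 7.33%, where Wnt2 and Dkk3 had no adjusted p) and Sfrp2, lower, for the Rosi effect (0.424%). Set against WT-Veh, ob/ob-Rosi gave an edgeR call for 0 of 6 in progenitor-like cells and 0 of 5 in preadipocyte-like cells (0% and 0.0712% of all genes), with 1 gene in each class at an unadjusted p under 0.05 (2.93% and 5.01% of all genes), and DESeq2 called 1 over both classes (0.137% and 0.325%), with no adjusted p for Dkk3 and Wisp2 in progenitor-like cells. Fmo2 stromal-like cells gave 0 of 5 as well (0% of all genes, with 1 of the 5 and 2.05% of all genes at an unadjusted p under 0.05).

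**Figure D1:**
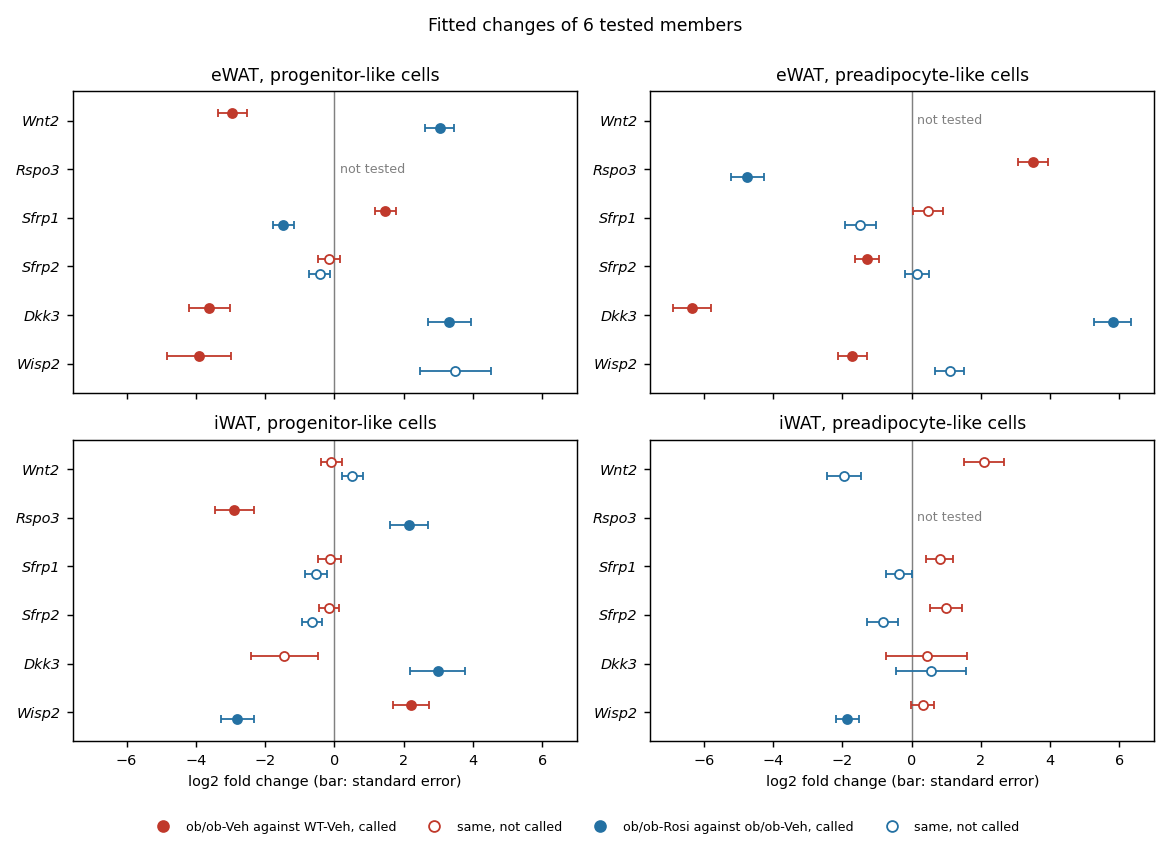
Fitted log2 fold changes of 6 members (Sfrp5 passed no filter) in progenitor-like and preadipocyte-like cells of each depot, with the ob effect in red and the Rosi effect in blue; points are edgeR estimates, bars their standard errors, and filled points are called. Wnt2 and Dkk3 in eWAT progenitor-like cells lie at -2.95 and -3.61 for the ob effect and at 3.04 and 3.31 for the Rosi effect.

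Wnt2, a canonical ligand, was highest in the progenitor-like class in both depots when whole APC-like classes were compared. Its level was higher in progenitor-like than in preadipocyte-like cells in 6 of 6 libraries of each depot, and progenitor-like cells held the highest level of the 3 APC-like classes in all of these. In iWAT ob/ob-Veh a finer cluster of Fmo2 stromal-like cells, led by Cilp and Mfap4, held more Wnt2 (211 and 136 CPM) than progenitor-like cells. In eWAT progenitor-like cells it stood at 54.4 and 29.9 CPM in WT-Veh, 6.54 and 3.42 in ob/ob-Veh and 44.1 and 42.0 in ob/ob-Rosi. The ob/ob-Veh libraries lay below every library of the other groups, which overlapped each other. The mean fell 8.47-fold from WT-Veh to ob/ob-Veh (edgeR log2 difference -2.95, SE 0.42, adjusted p = 0.00102) and rose 8.64-fold from ob/ob-Veh to ob/ob-Rosi (log2 3.04, SE 0.42, adjusted p = 0.000641). Between ob/ob-Rosi and WT-Veh the log2 difference was 0.10 (SE 0.42). The calls stood without each library in turn, and without ob/ob-Veh replicate 1 the differences were -3.65 and 3.74. With cells thinned to 700 UMIs the calls were lost at differences of the same size (-3.27 and 3.12, adjusted p = 0.065 and 0.139).

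The other eWAT classes held little Wnt2. Fmo2 stromal-like cells had 24.3 and 5.40 CPM in WT-Veh, 0.717 and 0.718 in ob/ob-Veh and 13.3 and 8.10 in ob/ob-Rosi, again with ob/ob-Veh below both other groups. On 20, 2 and 24 UMIs this is a ratio of 16.5 between WT-Veh and ob/ob-Veh (95% counting interval 4.02 to 146) and of 13.7 between ob/ob-Rosi and ob/ob-Veh (3.41 to 120). The intervals cover counting error only. The first ratio was 7.53 without WT-Veh replicate 1 and 33.9 without WT-Veh replicate 2. The ob effect was called (log2 -4.07, SE 0.99, adjusted p = 0.0402), and lost without WT-Veh replicate 1 or either ob/ob-Veh library (adjusted p = 0.437, then 0.212 and 0.191 without replicates 1 and 2). It was also lost by DESeq2 and at clustering resolutions 0.3 and 1.2. The Rosi effect missed the threshold (log2 3.70, SE 0.98, adjusted p = 0.0577). Preadipocyte-like cells held 12 UMIs of Wnt2 in WT-Veh, 1 in ob/ob-Veh and 14 in ob/ob-Rosi, too few to enter the test. The levels were 7.40 and 0.733, 0 and 0.174, and 5.11 and 2.36 CPM, so WT-Veh rests on replicate 1, with 11 of its 12 UMIs. The ratios to ob/ob-Veh were 50.7 (counting interval 7.51 to 2169) and 43.5 (6.61 to 1838). The first was 8.84 without WT-Veh replicate 1, 89.2 without WT-Veh replicate 2 and 24.2 without ob/ob-Veh replicate 1. The second was 28.4 without ob/ob-Rosi replicate 1 and 20.8 without ob/ob-Veh replicate 1, the library with no UMI.

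iWAT progenitor-like cells had more Wnt2 and did not follow the eWAT pattern. Their levels were 145 and 125 CPM in WT-Veh, 172 and 114 in ob/ob-Veh and 181 and 171 in ob/ob-Rosi, and WT-Veh and ob/ob-Veh overlapped. Neither the ob effect (log2 -0.09, SE 0.30, adjusted p = 0.871) nor the Rosi effect (log2 0.52, SE 0.29, adjusted p = 0.256) was called. The depot difference, iWAT minus eWAT over the 3 groups, was a log2 of 2.92 (SE 0.41, adjusted p = 0.000145). The ob effect itself differed between the depots by a log2 of 2.88 (SE 0.53, adjusted p = 0.0186) and the Rosi effect by -2.53 (SE 0.52, adjusted p = 0.0285). The first was lost without ob/ob-Veh replicate 2 or WT-Veh replicate 1 of eWAT (adjusted p = 0.0596 and 0.119) and without ob/ob-Veh replicate 1 or WT-Veh replicate 2 of iWAT (0.098 and 0.0655). The second was lost without ob/ob-Rosi replicate 1 or 2 or ob/ob-Veh replicate 2 of eWAT (adjusted p = 0.0944, 0.0979 and 0.1004) and without ob/ob-Rosi replicate 2 or ob/ob-Veh replicate 1 of iWAT (0.1002 and 0.115). Both were also lost with all APC-like cells as 1 class. The second was lost as well with thinned cells, with cells assigned singly and without the stricter naming rules.

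In iWAT preadipocyte-like cells the direction was the other one, without a call. Wnt2 was at 4.51 and 4.43 CPM in WT-Veh, 27.0 and 11.0 in ob/ob-Veh and 5.24 and 4.45 in ob/ob-Rosi (log2 2.09, SE 0.57, adjusted p = 0.109, and log2 -1.96, SE 0.49, adjusted p = 0.0868). Fmo2 stromal-like cells had 12.3 and 25.1, 82.3 and 56.7, and 9.62 and 26.5 CPM in the same order of groups (adjusted p = 0.172 and 0.109). In both classes the ob/ob-Veh libraries were above all others. Macrophage-like cells of the same depot, which should lack the gene, also went from 1.01 and 0.828 CPM in WT-Veh to 8.11 and 6.81 in ob/ob-Veh and 1.58 and 1.60 in ob/ob-Rosi, and T/NK/ILC-like cells reached 31.2 and 19.2 CPM in ob/ob-Veh. The preadipocyte-like levels of ob/ob-Veh were below those of the T/NK/ILC-like cells of the same libraries, so no change is read from them. The part of free RNA was not tested.

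Wnt5a, picked for its shift, was high in ob/ob-Veh in every APC-like class of both depots. In eWAT preadipocyte-like cells it was at 29.6 and 30.1 CPM in WT-Veh, 154 and 195 in ob/ob-Veh and 26.1 and 13.7 in ob/ob-Rosi. The ob/ob-Veh mean was 5.84-fold that of WT-Veh and 8.75-fold that of ob/ob-Rosi, and no library of another group came near it. eWAT progenitor-like cells had 33.8 and 49.8, 109.8 and 158, and 46.7 and 24.2 CPM, which is 3.20-fold and 3.77-fold between the means. Fmo2 stromal-like cells of eWAT had 41.7 and 40.5, 125 and 129, and 34.9 and 13.7 CPM.

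iWAT showed the same order of groups for Wnt5a with smaller ratios. Its progenitor-like cells had 44.4 and 58.9 CPM in WT-Veh, 96.0 and 133 in ob/ob-Veh and 38.0 and 57.5 in ob/ob-Rosi, 2.22-fold and 2.40-fold between ob/ob-Veh and the other means. Preadipocyte-like cells had 12.4 and 39.1, 63.3 and 91.8, and 24.4 and 21.7 CPM, and Fmo2 stromal-like cells 69.9 and 60.3, 107 and 145, and 68.7 and 52.4 CPM. WT-Veh and ob/ob-Rosi overlapped or lay close together in each class, below ob/ob-Veh. In macrophage-like cells Wnt5a stayed at or below 9.99 CPM in every library, highest in ob/ob-Veh in both depots. Mesothelial-like cells of eWAT, with 37.0 and 25.5, 50.5 and 48.8, and 53.1 and 21.4 CPM, had ob/ob-Veh above WT-Veh as well, while ob/ob-Rosi spanned both.

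The eWAT preadipocyte-like class joined clusters whose shares differed between groups, so Wnt5a was also read inside each. In the larger cluster it was at 29.1 and 27.8 CPM in WT-Veh, 157 and 147 in ob/ob-Veh and 27.6 and 10.2 in ob/ob-Rosi, and in the other at 36.0 and 36.6, 153 and 207, and 16.5 and 16.6 CPM. The order of groups was the same in both. The larger cluster was led by mitochondrial transcripts and Malat1 and had a median of 1428.5 UMIs per cell, 0.478 of its libraries' median, and the other, with 6175 UMIs, made up 52.3% to 60.9% of the class in ob/ob-Veh and 3.99% to 33.8% in the other groups.

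**Figure D2:**
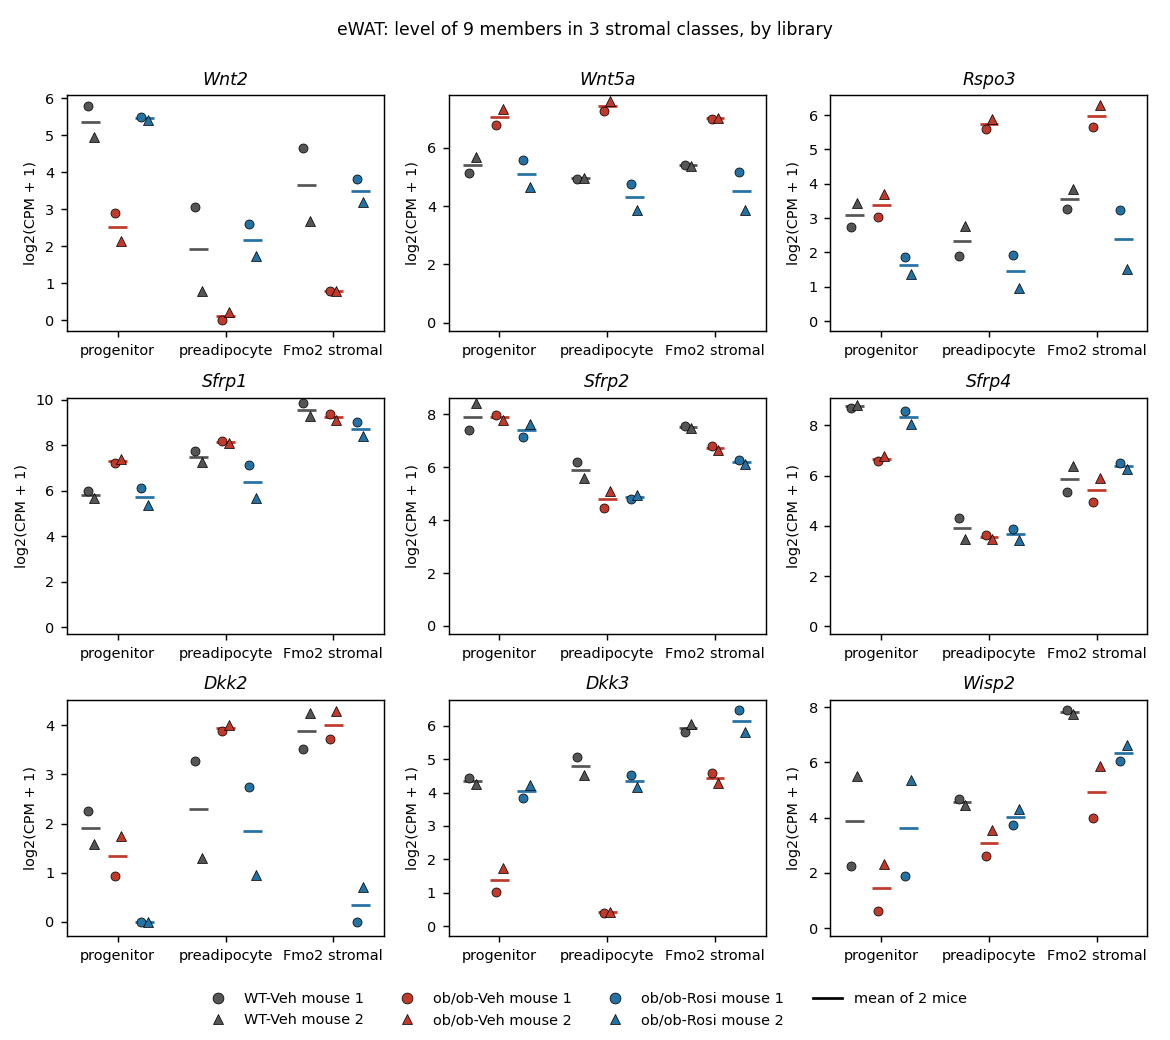
Level of 9 members in 3 stromal classes of eWAT, as log2(CPM + 1) per library, with circles for replicate 1, triangles for replicate 2 and a line at the mean of each group. Wnt2 and Dkk3 in progenitor-like cells of ob/ob-Veh lie below the other groups, and Wnt5a of ob/ob-Veh lies above them in all 3 classes.

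Rspo3, which amplifies Wnt signals at the receiving cell, separated the depots and the classes. In eWAT preadipocyte-like cells it was at 2.69 and 5.87 CPM in WT-Veh, 47.6 and 58.5 in ob/ob-Veh and 2.84 and 0.943 in ob/ob-Rosi, on 12, 637 and 7 UMIs. It rose in ob/ob-Veh (log2 3.50, SE 0.45, adjusted p = 0.000811) and fell after Rosi (log2 -4.74, SE 0.48, adjusted p = 0.000287). Both calls stood without each library in turn, and the Rosi effect ran from -4.07 without ob/ob-Rosi replicate 2 to -5.71 without ob/ob-Rosi replicate 1. Within the larger cluster of the class Rspo3 was at 2.91 and 7.93, 11.1 and 18.8, and 1.97 and 0 CPM. Within the other it was at 0 and 0, 54.5 and 69.2, and 8.23 and 1.75 CPM, so ob/ob-Veh was highest in each and by more in the second. All APC-like cells taken as 1 class kept both calls.

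In Fmo2 stromal-like cells of eWAT, where Rspo3 was highest of the 3 APC-like classes in 6 of 6 libraries, the levels were 8.69 and 13.5 CPM in WT-Veh, 49.5 and 78.2 in ob/ob-Veh and 8.43 and 1.87 in ob/ob-Rosi. The ob effect was a log2 of 2.39 (SE 0.46, adjusted p = 0.0124) and the Rosi effect -3.79 (SE 0.51, adjusted p = 0.00126). The ob effect was lost without ob/ob-Veh replicate 2 and without WT-Veh replicate 1 or 2 (adjusted p = 0.0846, 0.127 and 0.15), and the Rosi effect ran from -2.84 to -4.93 without ob/ob-Rosi replicate 2 or 1. The ob effect was also lost at clustering resolution 1.2. Progenitor-like cells of eWAT had 5.63 and 9.96, 7.20 and 12.1, and 2.67 and 1.61 CPM, and were not tested. The 3 UMIs in ob/ob-Rosi against 101 in ob/ob-Veh give a ratio of 4.02 (counting interval 1.34 to 19.8).

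iWAT held Rspo3 in progenitor-like cells and hardly elsewhere. There it was at 34.5 and 87.4 CPM in WT-Veh, 5.87 and 14.7 in ob/ob-Veh and 27.9 and 49.4 in ob/ob-Rosi, so ob/ob-Veh was lowest, the reverse of the eWAT classes above. It fell in ob/ob-Veh (log2 -2.89, SE 0.55, adjusted p = 0.0292) and rose after Rosi (log2 2.16, SE 0.54, adjusted p = 0.0336). The first call was lost without either ob/ob-Veh library, replicate 1 or 2, and without WT-Veh replicate 2 (log2 -2.38, -3.69 and -1.89, adjusted p = 0.266, 0.154 and 0.122), the second without ob/ob-Veh replicate 1 or 2 and without ob/ob-Rosi replicate 2 (adjusted p = 0.233, 0.163 and 0.168). Both were also lost when cells were assigned singly, with all APC-like cells as 1 class, at clustering resolution 1.2 and without the stricter naming rules.

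Within the main clusters of the iWAT progenitor-like class the order held, with Rspo3 at 23.9 and 88.3, 4.70 and 19.2, and 28.6 and 51.2 CPM in one and at 28.9 and 84.7, 6.12 and 12.0, and 23.0 and 41.9 CPM in the other. The levels of the iWAT preadipocyte-like and Fmo2 stromal-like cells were at most 4.12 CPM. Over the 3 groups, iWAT minus eWAT was a log2 of 1.91 in progenitor-like cells (SE 0.52, adjusted p = 0.0206), -2.79 in preadipocyte-like cells (SE 0.46, adjusted p = 0.00133) and -3.68 in Fmo2 stromal-like cells (SE 0.60, adjusted p = 0.000714). The progenitor-like difference was lost without any 1 of the WT-Veh or ob/ob-Rosi libraries of eWAT (adjusted p from 0.0527 to 0.0738). It was also lost with thinned cells, with all APC-like cells as 1 class, at clustering resolution 0.3 and without the stricter naming rules. The preadipocyte-like difference was lost with cells assigned singly and turned to 1.57 (adjusted p = 0.335) with all APC-like cells as 1 class. The Rosi effect in progenitor-like cells differed between depots by 4.20 (SE 1.00, adjusted p = 0.0485), on the 3 UMIs named above. It was lost without any 1 of 9 libraries, both ob/ob-Veh libraries of each depot, both ob/ob-Rosi and both WT-Veh libraries of eWAT and ob/ob-Rosi replicate 2 of iWAT (adjusted p from 0.0574 to 0.187). That call was also lost by library size alone, with thinned cells, with all APC-like cells as 1 class and without the stricter naming rules.

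Sfrp1, an extracellular Wnt inhibitor, was highest in Fmo2 stromal-like cells in 6 of 6 libraries of both depots. In eWAT progenitor-like cells it was at 62.0 and 49.8 CPM in WT-Veh, 149 and 169 in ob/ob-Veh and 68.1 and 40.3 in ob/ob-Rosi, with ob/ob-Veh above all others. It rose in ob/ob-Veh (log2 1.47, SE 0.31, adjusted p = 0.0134) and fell after Rosi (log2 -1.48, SE 0.31, adjusted p = 0.0148). The rise was lost without WT-Veh replicate 1 or 2 (adjusted p = 0.0554 and 0.222) and the fall without ob/ob-Rosi replicate 2 (log2 -1.13, adjusted p = 0.163). With cells assigned singly the rise was 0.18 (adjusted p = 0.806), and with all APC-like cells as 1 class it was 0.08 (adjusted p = 0.913). The rise was also lost with thinned cells and at clustering resolution 0.3. The fall was also lost with thinned cells, with cells assigned singly and with all APC-like cells as 1 class. Its smallest difference among the alternatives was -0.63.

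No other class gave a call for the ob or Rosi effect of Sfrp1 in the fits without a replicate term. With a replicate block edgeR called the Rosi effect in eWAT preadipocyte-like cells (log2 -1.65, adjusted p = 0.00574). eWAT preadipocyte-like cells had 214 and 152 CPM in WT-Veh, 291 and 276 in ob/ob-Veh and 138 and 50.5 in ob/ob-Rosi (ob effect log2 0.48, adjusted p = 0.627, and Rosi effect -1.49, adjusted p = 0.0927). Fmo2 stromal-like cells had 929.7 and 621, 662 and 558, and 517 and 341 CPM in eWAT, and 201 and 207, 206 and 221, and 173 and 110.1 CPM in iWAT. iWAT progenitor-like cells had 95.4 and 55.6, 71.7 and 78.5, and 54.4 and 35.9 CPM, and WT-Veh and ob/ob-Veh overlapped there. Sfrp1 was lower in iWAT than in eWAT in preadipocyte-like cells (log2 -1.81, SE 0.32, adjusted p = 0.00216) and Fmo2 stromal-like cells (log2 -1.65, SE 0.21, adjusted p = 5.92e-05), and the first call stood in all alternatives.

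Sfrp2, which binds Wnts and is abundant in progenitors, was higher in progenitor-like than in preadipocyte-like cells in all 6 libraries of each depot. eWAT progenitor-like cells had 167 and 342 CPM in WT-Veh, 249 and 220.2 in ob/ob-Veh and 142 and 198 in ob/ob-Rosi, with WT-Veh overlapping both other groups, ob/ob-Veh above ob/ob-Rosi and no call. eWAT preadipocyte-like cells had 71.3 and 46.9, 21.1 and 33.5, and 26.7 and 29.7 CPM, WT-Veh being above both other groups. The ob effect there was called (log2 -1.29, SE 0.34, adjusted p = 0.0422) and was lost without WT-Veh replicate 1 and without ob/ob-Veh replicate 1 or 2 (log2 -0.81, -1.05 and -1.57, adjusted p = 0.354, 0.44 and 0.0962). It was also lost by library size alone, with thinned cells, with all APC-like cells as 1 class and without the stricter naming rules. The smallest difference among the alternatives was -0.16. Within the larger cluster of the class the groups were at 71.2 and 46.6, 48.3 and 54.9, and 29.0 and 31.7 CPM, where WT-Veh and ob/ob-Veh overlapped. Within the other they were at 71.9 and 47.8, 16.02 and 27.8, and 12.3 and 28.0 CPM, with WT-Veh above all others.

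The mesothelial-like cells of eWAT held much Sfrp2, at 573 and 465 CPM in WT-Veh, 184 and 196 in ob/ob-Veh and 380.0 and 914 in ob/ob-Rosi. It fell in ob/ob-Veh (log2 -1.54, SE 0.36, adjusted p = 0.0451) and rose after Rosi (log2 1.88, SE 0.36, adjusted p = 0.0367). The fall was lost without any 1 of the 4 libraries compared (adjusted p from 0.0644 to 0.21) and the rise without ob/ob-Veh replicate 1 or 2 and without ob/ob-Rosi replicate 2 (adjusted p = 0.195, 0.119 and 0.221).

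In iWAT the change was in Fmo2 stromal-like cells. Sfrp2 stood at 419 and 331 CPM in WT-Veh, 2395 and 1543 in ob/ob-Veh and 302 and 221 in ob/ob-Rosi, with ob/ob-Veh far above the rest. It fell after Rosi (log2 -2.88, SE 0.44, adjusted p = 0.0262), while the rise in ob/ob-Veh just missed the threshold (log2 2.38, SE 0.44, adjusted p = 0.0521). DESeq2 called this rise (log2 2.40, adjusted p = 1.54e-07), as did edgeR with a replicate block (log2 2.34, adjusted p = 0.00135). The fall was lost without ob/ob-Veh replicate 1 or 2 and without ob/ob-Rosi replicate 2 (adjusted p = 0.733, 0.183 and 0.132). This ob effect differed from that of eWAT Fmo2 stromal-like cells, which had 186 and 176, 109 and 101, and 75.9 and 68.5 CPM, by a log2 of 3.23 (SE 0.48, adjusted p = 0.0358). That call was lost without any 1 of the WT-Veh and ob/ob-Veh libraries of either depot (log2 from 2.82 to 3.56, adjusted p from 0.0614 to 0.224) and held without any of the ob/ob-Rosi libraries, in fits chosen after seeing the data.

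The iWAT APC-like cells were also clustered more finely. Of the clusters then named Fmo2 stromal-like, one was led by Fmo2, Cpe, Mgp and F3 and one by Cilp, Mfap4, Cpxm2 and Dkk2. A small one led by Spp1 and Thbs4, with at most 15 cells in a library, is left out. These clusters need not hold exactly the cells of the class above. Sfrp2 was at 405 and 304, 2361 and 1433, and 187 and 160.2 CPM in the first, and at 447 and 500.4, 2335 and 1637, and 531 and 351 CPM in the second. The level of ob/ob-Veh was therefore above that of the other groups in each. iWAT progenitor-like cells, with 475 and 462, 503 and 462, and 292 and 239 CPM, had no call (Rosi effect log2 -0.64, SE 0.29, adjusted p = 0.159). Preadipocyte-like cells had 46.3 and 91.7, 186 and 89.2, and 96.3 and 58.7 CPM, with overlapping groups.

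Other iWAT cells carried more Sfrp2 in ob/ob-Veh as well. Macrophage-like cells had 3.43 and 3.04 CPM in WT-Veh, 61.7 and 50.6 in ob/ob-Veh and 5.22 and 4.42 in ob/ob-Rosi. Endothelial-like cells had 60.9 and 51.8 CPM in ob/ob-Veh and at most 10.3 in the other groups, and B-like cells had 77.1 and 134 CPM in ob/ob-Veh. These levels are far below those of the Fmo2 stromal-like cells and overlap those of the preadipocyte-like cells. The part of free RNA in them was not tested. iWAT minus eWAT for Sfrp2 was a log2 of 0.94 in progenitor-like (SE 0.19, adjusted p = 0.00263), 1.47 in preadipocyte-like (SE 0.36, adjusted p = 0.0181) and 2.39 in Fmo2 stromal-like cells (SE 0.42, adjusted p = 0.00132). The preadipocyte-like difference was lost without ob/ob-Veh replicate 1 or 2 of eWAT (adjusted p = 0.0542 and 0.0605). It was also lost at clustering resolution 1.2 and without the stricter naming rules.

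Sfrp4, an Sfrp known from the stroma of fat and picked for its shift, moved in opposite directions in the progenitor-like cells of the depots. In eWAT progenitor-like cells it was at 407 and 453 CPM in WT-Veh, 94.3 and 109 in ob/ob-Veh and 375 and 268 in ob/ob-Rosi, so the ob/ob-Veh mean was 0.24 of that of WT-Veh and ob/ob-Rosi 3.17-fold above it. iWAT progenitor-like cells had 37.8 and 97.5 CPM in WT-Veh, 309 and 303 in ob/ob-Veh and 90.7 and 74.2 in ob/ob-Rosi. The ob/ob-Veh mean was 4.52-fold that of WT-Veh. This was 8.09-fold without WT-Veh replicate 2, and smaller than 4.52-fold without WT-Veh replicate 1, the library with the lower level. ob/ob-Veh stood clear of both other groups in each depot, below in eWAT and above in iWAT. With cells assigned singly the eWAT means were 192 CPM in WT-Veh, 93.3 in ob/ob-Veh and 124 in ob/ob-Rosi, the same order with smaller steps.

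The class that held most Sfrp4 was the progenitor-like class in 6 of 6 eWAT libraries and the Fmo2 stromal-like class in 6 of 6 iWAT libraries. iWAT Fmo2 stromal-like cells had 164 and 159 CPM in WT-Veh, 468 and 743 in ob/ob-Veh and 324 and 385 in ob/ob-Rosi, so the ob/ob-Rosi libraries lay between the other groups. iWAT preadipocyte-like cells had 7.90 and 11.2, 107 and 34.7, and 11.1 and 6.13 CPM. In ob/ob-Veh of that depot Sfrp4 was also at 28.0 and 17.5 CPM in macrophage-like, 35.3 and 23.9 in endothelial-like, 93.6 and 53.7 in T/NK/ILC-like and 77.1 and 57.3 in B-like cells, against at most 10.6 in the other groups of these 4. The preadipocyte-like levels overlap that range. eWAT preadipocyte-like cells, at 9.90 to 18.8 CPM, showed no order of groups in all. Inside their larger cluster ob/ob-Veh was highest, as in iWAT, at 38.2 and 26.2 CPM against 20.3 and 11.9 in WT-Veh and 13.2 and 13.3 in ob/ob-Rosi, and inside the other the levels were 0 and 5.62, 6.41 and 5.95, and 16.5 and 6.999 CPM. Fmo2 stromal-like cells had 40.0 and 81.9, 30.1 and 59.6, and 89.1 and 75.4 CPM.

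Inside the main clusters of the iWAT progenitor-like class Sfrp4 was at 41.8 and 94.3, 176 and 206, and 101 and 72.4 CPM, and at 21.7 and 107, 338 and 360.4, and 123 and 82.1 CPM. One cluster, led by stress genes such as Ptgs2, Nr4a3 and Il6, had the smaller step. The other made up 62.9% to 80.6% of the class in ob/ob-Veh and 23.7% to 39.2% in the other groups. A smaller cluster of 305 cells, led by Akr1c18 and Ptgs2, held 28.3% of the class in WT-Veh replicate 1, 31.8% in ob/ob-Rosi replicate 1 and no cell in ob/ob-Veh. Sfrp4 was at 43.0 CPM in it in WT-Veh replicate 1 and 72.5 CPM in ob/ob-Rosi replicate 1.

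**Figure D3:**
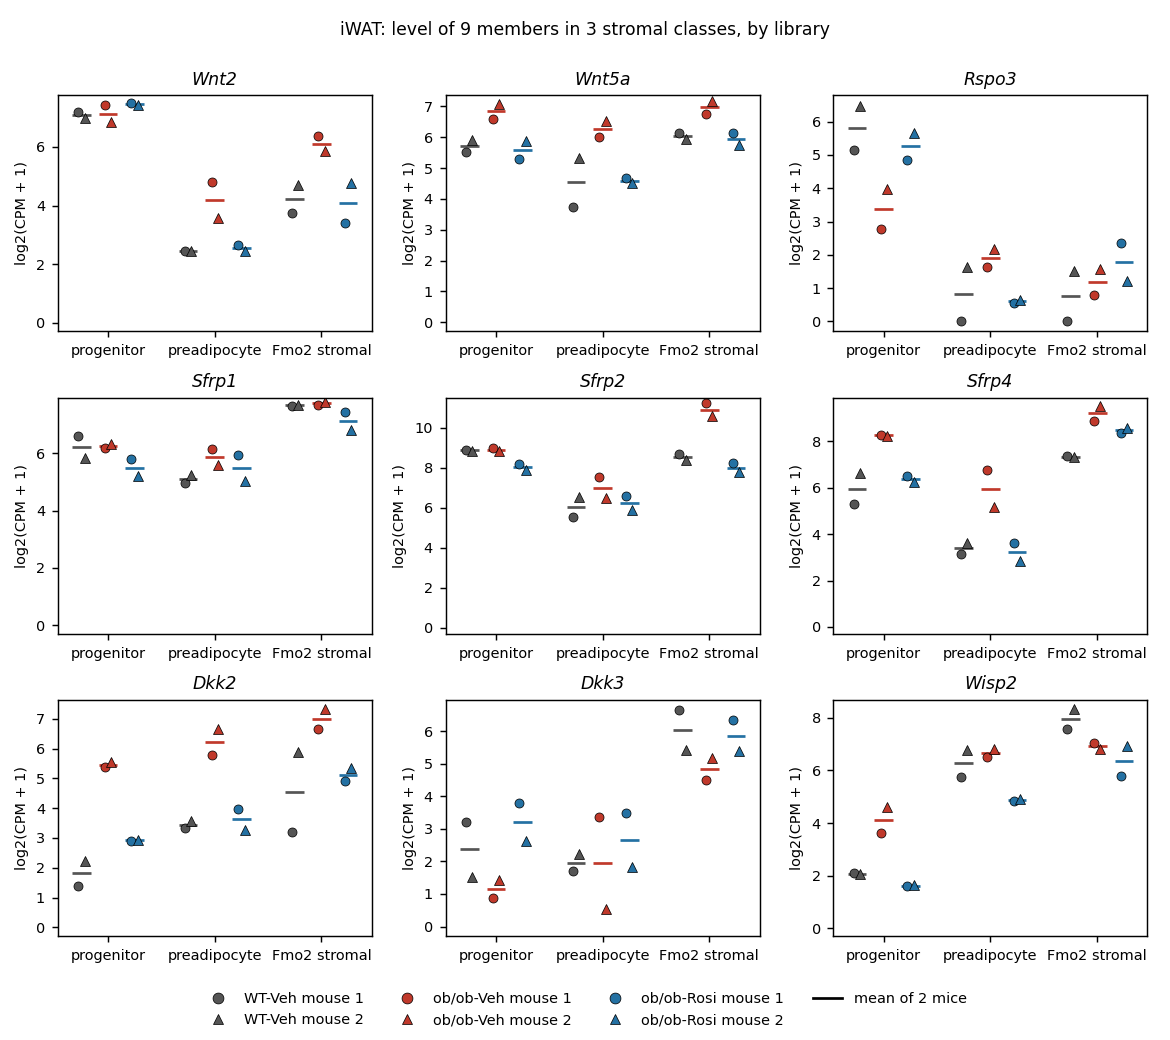
Level of 9 members in 3 stromal classes of iWAT, as log2(CPM + 1) per library, with circles for replicate 1, triangles for replicate 2 and a line at the mean of each group. Sfrp4, Dkk2 and Wnt5a of ob/ob-Veh lie highest in all 3 classes, Sfrp2 stands out in Fmo2 stromal-like cells at 2395 and 1543 CPM, and Rspo3 of ob/ob-Veh lies lowest in progenitor-like cells.

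Sfrp5, known as a Wnt5a antagonist made in white fat, was near absent from the eWAT APC-like and mesothelial-like classes and from most iWAT APC-like libraries. It had 0 UMIs in eWAT progenitor-like, Fmo2 stromal-like and mesothelial-like cells, and in preadipocyte-like cells 0.943 CPM in ob/ob-Rosi replicate 2 alone. No iWAT progenitor-like or preadipocyte-like library exceeded 1.42 CPM. In iWAT Fmo2 stromal-like cells it had 0.748 and 27.3 CPM in ob/ob-Veh and 4.12 CPM in ob/ob-Rosi replicate 1, and 0 in the other 3 libraries. Nearly all of it came from 1 library, ob/ob-Veh replicate 2, which had 28 UMIs in the cluster led by Fmo2 and Cpe. The 29 UMIs of ob/ob-Veh against 3 of ob/ob-Rosi make a ratio of 9.15 (counting interval 2.84 to 46.9). This ratio was 20.4 without ob/ob-Veh replicate 1, 0.557 without ob/ob-Veh replicate 2 and 2.98 without ob/ob-Rosi replicate 2. Sfrp5 passed no filter and was not tested in these classes.

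Dkk2, an Lrp5/6 ligand picked for its shift, was high in ob/ob-Veh in iWAT. Progenitor-like cells had 1.64 and 3.68 CPM in WT-Veh, 40.2 and 46.2 in ob/ob-Veh and 6.47 and 6.72 in ob/ob-Rosi. The step between the first means was 16.2-fold. It was 26.3-fold without WT-Veh replicate 2, and smaller than 16.2-fold without WT-Veh replicate 1, the library with the lower level. The ob/ob-Rosi mean was 0.15 of the ob/ob-Veh mean. Preadipocyte-like cells had 9.03 and 10.9, 54.7 and 99.7, and 14.8 and 8.69 CPM, and Fmo2 stromal-like cells 8.22 and 58.5, 101 and 159, and 28.9 and 39.8 CPM. In each of the 3 classes both ob/ob-Veh libraries were above all others. Macrophage-like cells of the depot went from at most 0.202 CPM in WT-Veh to 3.35 and 7.49 in ob/ob-Veh.

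Within the iWAT progenitor-like class Dkk2 was at 0 and 3.32, 18.8 and 39.6, and 3.47 and 6.54 CPM in the cluster led by stress genes, and at 0 and 4.76, 44.9 and 50.1, and 11.5 and 7.54 CPM in the other large one. Of the Fmo2 stromal-like sub-clusters, the one with Dkk2 among its leading genes (it took no part in the clustering) had 13.1 and 164, 316 and 443, and 69.9 and 96.1 CPM. The one led by Fmo2 and Cpe had 5.47 and 5.60, 9.46 and 76.8, and 14.4 and 4.25 CPM, where ob/ob-Veh replicate 1 lay within the range of the other groups.

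eWAT held little Dkk2. Preadipocyte-like cells had 8.74 and 1.47 CPM in WT-Veh, 13.8 and 15.1 in ob/ob-Veh and 5.67 and 0.943 in ob/ob-Rosi. Inside the larger cluster of this class the levels were 7.27 and 1.98, 4.02 and 0, and 5.26 and 1.02 CPM, with overlapping groups. Inside the other they were 27.0 and 0, 15.6 and 19.2, and 8.23 and 0.875 CPM. There WT-Veh replicate 1, on 3 UMIs, was above both ob/ob-Veh libraries. Progenitor-like cells had 4, 16 and 0 UMIs in the 3 groups. The 0 of ob/ob-Rosi allows up to 4.01 and 4.84 CPM in its libraries (3 UMIs of each total), above the 0.916 and 2.37 CPM of ob/ob-Veh, so no difference was detectable at this depth. Fmo2 stromal-like cells had 10.4 and 18.0, 12.2 and 18.7, and 0 and 0.623 CPM, and the 1 UMI of ob/ob-Rosi against 43 in ob/ob-Veh gives a ratio of 37.6 (counting interval 6.39 to 1518), or 24.8 without ob/ob-Rosi replicate 1. Its single UMI was in replicate 2.

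Dkk3, the divergent Dickkopf, gave the largest ob and Rosi effects within a depot among the tested members. In eWAT preadipocyte-like cells it was at 32.3 and 22.0 CPM in WT-Veh, 0.317 and 0.347 in ob/ob-Veh and 22.1 and 17.0 in ob/ob-Rosi, on 78, 4 and 75 UMIs. It fell in ob/ob-Veh (log2 -6.35, SE 0.54, adjusted p = 0.000114) and rose after Rosi (log2 5.80, SE 0.55, adjusted p = 0.000166). Both calls stood in all 17 alternatives, with a range of -3.49 to -6.70 for the fall and 3.57 to 6.04 for the rise, the smallest of them with all APC-like cells as 1 class. Inside the larger cluster of the class Dkk3 was at 33.4 and 25.8, 1.01 and 0.819, and 24.3 and 29.7 CPM, and inside the other at 18.0 and 11.2, 0.188 and 0.220, and 8.23 and 6.12 CPM, so ob/ob-Veh was lowest in each. Macrophage-like cells of eWAT held Dkk3 at 0.314 to 0.855 CPM over the 6 libraries, so the 0.317 and 0.347 CPM of ob/ob-Veh preadipocyte-like cells were at that background level.

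Progenitor-like cells of eWAT followed, with Dkk3 at 20.7 and 17.9 CPM in WT-Veh, 1.05 and 2.37 in ob/ob-Veh and 13.4 and 17.8 in ob/ob-Rosi. The fall was a log2 of -3.61 (SE 0.59, adjusted p = 0.00263), lost without WT-Veh replicate 2 (adjusted p = 0.0822), and the rise 3.31 (SE 0.62, adjusted p = 0.00741), lost without ob/ob-Rosi replicate 2 and without ob/ob-Veh replicate 1 (adjusted p = 0.151 and 0.0621). Fmo2 stromal-like cells, the highest of the 3 APC-like classes for Dkk3 in all libraries, had 55.6 and 65.7, 22.9 and 18.7, and 86.7 and 54.8 CPM. There it fell by 1.60 on the log2 scale (SE 0.36, adjusted p = 0.0293) and rose by 1.79 (SE 0.35, adjusted p = 0.0116). The fall was lost without any 1 of the 4 libraries compared, WT-Veh replicates 1 and 2 and ob/ob-Veh replicates 1 and 2 (adjusted p = 0.135, 0.291, 0.169 and 0.349), and the rise without ob/ob-Veh replicate 1 or 2 (adjusted p = 0.0827 and 0.205). Both were also lost at clustering resolution 0.3, and the fall with thinned cells. Over the alternatives the fall ran from -0.57 to -3.18 and the rise from 0.70 to 3.21. Mesothelial-like cells had 30.8 and 84.4, 114 and 106, and 42.5 and 54.7 CPM, with no call.

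The summed level of 8 macrophage markers also moved with the groups in eWAT. It was 861 to 1061 CPM in progenitor-like cells of WT-Veh, 147 to 222 in ob/ob-Veh and 787 to 1044 in ob/ob-Rosi, and 1365 to 1963, 181 to 237, and 1209 to 1395 CPM in preadipocyte-like cells, with no marker at 0. The order is that of Wnt2, Dkk3 and Sfrp4 and the reverse of Wnt5a and Sfrp1 in progenitor-like cells, and that of Dkk3 and Wisp2 and the reverse of Wnt5a, Sfrp1 and Rspo3 in preadipocyte-like cells. In eWAT macrophage-like cells Wnt2 was at most 0.502 CPM and Wnt5a at most 4.99 CPM, far below their levels in progenitor-like cells. The part of such RNA in the changes of the members was not tested.

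Dkk3 was low in iWAT progenitor-like cells, at 8.22 and 1.90 CPM in WT-Veh, 0.838 and 1.68 in ob/ob-Veh and 12.7 and 5.23 in ob/ob-Rosi. It rose after Rosi (log2 2.98, SE 0.80, adjusted p = 0.0413), a call lost without any 1 of the libraries compared, ob/ob-Rosi replicate 1 or 2 and ob/ob-Veh replicate 1 or 2 (log2 2.29, 3.49, 2.61 and 3.59, adjusted p = 0.175, 0.0701, 0.235 and 0.225). That call was also lost by library size alone and with all APC-like cells as 1 class. iWAT preadipocyte-like cells had 2.26 and 3.65, 9.24 and 0.439, and 10.3 and 2.56 CPM. Fmo2 stromal-like cells of iWAT had 98.6 and 41.8, 21.7 and 35.2, and 79.7 and 40.5 CPM, with both ob/ob-Veh libraries below all others and no call.

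Wisp2, a secreted matricellular protein, was highest in Fmo2 stromal-like cells in 6 of 6 eWAT and 5 of 6 iWAT libraries. In those of eWAT it was at 236 and 215 CPM in WT-Veh, 15.1 and 58.1 in ob/ob-Veh and 66.3 and 97.2 in ob/ob-Rosi, so that ob/ob-Rosi lay between the others. It fell in ob/ob-Veh (log2 -2.71, SE 0.45, adjusted p = 0.00459), while the Rosi effect was not called (log2 1.26, SE 0.45, adjusted p = 0.175). The fall was -2.07 (adjusted p = 0.0673) without ob/ob-Veh replicate 1 and -3.88 without ob/ob-Veh replicate 2.

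Wisp2 in eWAT progenitor-like cells varied widely between the replicates of each group. The levels were 3.75 and 44.8 CPM in WT-Veh, 0.523 and 3.94 in ob/ob-Veh and 2.67 and 40.3 in ob/ob-Rosi, with replicate 2 above replicate 1 in each group and ob/ob-Veh lowest at either number. The ob effect was called at a log2 of -3.91 (SE 0.93, adjusted p = 0.0294) and fell to -1.08 (adjusted p = 0.885) without WT-Veh replicate 2. It was -4.55 without WT-Veh replicate 1, and -2.85 and -5.48 without replicates 1 and 2 of ob/ob-Veh. DESeq2 did not call it (adjusted p = 0.625), and it was lost at clustering resolution 1.2. The Rosi effect missed the threshold in the fit without a replicate term (log2 3.49, SE 1.03, adjusted p = 0.0876). With a replicate block edgeR called it (log2 3.21, adjusted p = 0.000436). eWAT preadipocyte-like cells had 24.9 and 21.3, 5.08 and 10.8, and 12.5 and 18.9 CPM, a called fall in ob/ob-Veh (log2 -1.71, SE 0.41, adjusted p = 0.0276) that was lost without ob/ob-Veh replicate 1 or WT-Veh replicate 1 (adjusted p = 0.316 and 0.191). The fall was also lost by library size alone and with thinned cells. The larger, shallower cluster made up 88.6% to 96.0% of this class in WT-Veh and 39.1% to 47.7% in ob/ob-Veh. The part of these shares in the fall was not tested.

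iWAT progenitor-like cells had Wisp2 at 3.29 and 3.20 CPM in WT-Veh, 11.3 and 23.5 in ob/ob-Veh and 2.02 and 2.16 in ob/ob-Rosi, so ob/ob-Veh was highest here and lowest in eWAT. It rose in ob/ob-Veh (log2 2.20, SE 0.52, adjusted p = 0.0468) and fell after Rosi (log2 -2.80, SE 0.47, adjusted p = 0.0113). The rise was lost without WT-Veh replicate 2 and without ob/ob-Veh replicate 1 or 2 (log2 2.25, 2.61 and 1.57, adjusted p = 0.283, 0.202 and 0.389) and turned to -0.41 (adjusted p = 0.442) with all APC-like cells as 1 class. It kept its call in 6 of 17 alternatives. The rise was also lost by DESeq2, with thinned cells, with doublets removed and with cells assigned singly. Clustering resolutions 0.3 and 1.2 and naming without the stricter rules lost it too. The fall was lost without ob/ob-Rosi replicate 2 and without ob/ob-Veh replicate 1 or 2 (adjusted p = 0.0599, 0.0713 and 0.192). It was also lost with all APC-like cells as 1 class.

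iWAT preadipocyte-like cells had Wisp2 at 53.0 and 108 CPM in WT-Veh, 91.0 and 113 in ob/ob-Veh and 27.9 and 29.2 in ob/ob-Rosi. The Rosi effect was called (log2 -1.86, SE 0.34, adjusted p = 0.0394) and lost without any 1 of the 4 libraries compared (adjusted p from 0.104 to 0.353), and WT-Veh and ob/ob-Veh overlapped. That call was also lost with thinned cells and with all APC-like cells as 1 class. The 6 adipocyte transcripts tracked as free adipocyte RNA summed to 299 to 613 CPM in these cells of WT-Veh, 99.3 to 144 in ob/ob-Veh and 32.1 to 58.5 in ob/ob-Rosi. Their part in the change was not tested. iWAT Fmo2 stromal-like cells had 189 and 320.1, 131 and 111, and 53.6 and 122 CPM, with no call.

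Across the depots, 3 of 6 tested members were called in progenitor-like cells (Wnt2, Sfrp2 and Rspo3, all higher in iWAT, against 13.5% of all genes). In preadipocyte-like cells 4 of 6 were called (Sfrp2 and Wisp2 higher, Sfrp1 and Rspo3 lower in iWAT, against 8.12%), and in Fmo2 stromal-like cells 4 of 6 (Wnt2 and Sfrp2 higher, Sfrp1 and Rspo3 lower, against 7.35%). The difference for Wnt2 in Fmo2 stromal-like cells was a log2 of 2.30 (SE 0.63, adjusted p = 0.0318). Wisp2 in preadipocyte-like cells was higher in iWAT by 2.26 (SE 0.40, adjusted p = 0.00227), a call lost with cells assigned singly, at clustering resolutions 0.3 and 1.2, with all APC-like cells as 1 class and without the stricter naming rules. The depots were clustered apart from each other, so a class of the same name may hold different cells. The labels do not say whether both depots came from the same mice, and no mouse term was fitted.

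Tests of the depot difference of an effect gave Wnt2 and Wisp2 for the ob effect in progenitor-like cells (1.17% of all genes called) and Wnt2, Rspo3 and Wisp2 for the Rosi effect (1.69%). In preadipocyte-like cells Wnt2 was called for the ob effect (0.616%) and edgeR called 0 for the Rosi effect (0.176%), with 4 genes, and 8.41% of all genes, at an unadjusted p under 0.05. In Fmo2 stromal-like cells Sfrp2 was called for the ob effect (0.0977%) and 0 for the Rosi effect (0%), again with 4, and 7.2% of all genes, at an unadjusted p under 0.05. DESeq2 called 14 of these differences in progenitor-like and preadipocyte-like cells, where edgeR called 6. Of all genes with a DESeq2 adjusted p it called 2.65% (progenitor-like) and 1.55% (preadipocyte-like) where the ob effect was compared, while the Rosi effect gave 4.36% and 0.917%, each above the share edgeR called. For Wisp2 the ob effects differed by a log2 of 6.05 (SE 1.35, adjusted p = 0.0434) and the Rosi effects by -6.26 (SE 1.34, adjusted p = 0.0322). Without WT-Veh replicate 2 of eWAT the first was 3.26 (adjusted p = 0.693), and it was also lost without ob/ob-Veh replicate 1 of eWAT or WT-Veh replicate 2 or either ob/ob-Veh library of iWAT (adjusted p from 0.098 to 0.205). Without ob/ob-Rosi replicate 2 of eWAT the second was -3.35 (adjusted p = 0.534), and it was also lost without ob/ob-Veh replicate 1 of eWAT or ob/ob-Rosi replicate 2 or either ob/ob-Veh library of iWAT (adjusted p from 0.0737 to 0.144). Both Wisp2 differences were also lost with thinned cells, with all APC-like cells as 1 class and without the stricter naming rules. Wnt2 in preadipocyte-like cells differed by 7.34 (SE 1.47, adjusted p = 0.0467), resting on 1 UMI in eWAT ob/ob-Veh, and by 4.74 (adjusted p = 0.503) without WT-Veh replicate 1 of eWAT. That call was also lost without either ob/ob-Veh library of eWAT or any 1 of the WT-Veh and ob/ob-Veh libraries of iWAT (adjusted p from 0.0571 to 0.207). All APC-like cells as 1 class lost it too.

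The wider Wnt pathway was read from a list of 74 further ligands, receptors, inhibitors, transducers and targets. For this list the alternatives were read as counts of calls, not gene by gene, so how well a named call holds is not given. In eWAT the count fell with thinned cells and without certain single libraries, and rose under other settings (closing sections). In eWAT progenitor-like cells 28 of the 74 were tested, and 2 were called higher and 2 lower in ob/ob-Veh, and 0 higher and 3 lower after Rosi, beside 3.5% and 2.88% of all genes called. Wnt10b, a canonical ligand known to block adipogenesis, was at 15.02 and 14.0 CPM in WT-Veh, 52.7 and 51.0 in ob/ob-Veh and 22.7 and 9.68 in ob/ob-Rosi (log2 1.82, adjusted p = 0.011, and -1.59, adjusted p = 0.0259). The target gene Myc was at 39.4 and 36.9, 121 and 109, and 25.4 and 17.8 CPM, and was called in both effects (adjusted p = 0.00685 and 0.000589). Of the receptors, Fzd1 had 105 and 154, 41.2 and 65.4, and 122 and 83.9 CPM and fell in ob/ob-Veh (log2 -1.37, adjusted p = 0.0167). Lgr4, a receptor of R-spondins, had 73.2 and 47.8, 27.9 and 28.4, and 28.0 and 29.0 CPM and fell as well (log2 -1.11, adjusted p = 0.0483). Rspo1 fell after Rosi (log2 -1.53, adjusted p = 0.0265), from 48.7 and 65.7 to 25.4 and 11.3 CPM.

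In eWAT preadipocyte-like cells 40 of the 74 were tested, with 1 higher and 2 lower in ob/ob-Veh and 3 higher and 1 lower after Rosi, beside 6.22% and 4.67% of all genes. Rspo1 rose in ob/ob-Veh as Rspo3 did, from 13.4 and 14.7 to 46.8 and 58.2 CPM (log2 1.75, adjusted p = 0.03), and fell after Rosi to 20.4 and 7.07 CPM (log2 -1.85, adjusted p = 0.0242). Fzd1 fell from 135 and 147 to 33.3 and 43.6 CPM (log2 -2.02, adjusted p = 0.00437) and rose to 116 and 65.5 CPM (log2 1.34, adjusted p = 0.042). Frzb, the Sfrp family member also called Sfrp3, was at 0.159 and 0.347 CPM in ob/ob-Veh and rose after Rosi to 5.11 and 23.6 CPM (log2 5.73, adjusted p = 0.0026). The canonical target Ccnd1, which drives entry into the cell cycle, was at 15.5 and 10.3, 4.60 and 6.43, and 19.3 and 20.3 CPM and also rose after Rosi (log2 1.93, adjusted p = 0.012).

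Fmo2 stromal-like cells of eWAT gave 1 higher and 1 lower of 39 in ob/ob-Veh and 1 higher and 2 lower after Rosi, beside 2.76% and 3.12% of all genes. Frzb was at 8.69 and 20.7, 0.717 and 0.718, and 12.0 and 38.0 CPM (adjusted p = 0.0186 and 0.00306), the order that Dkk3 and Wisp2 also had between WT-Veh and ob/ob-Veh. Myc was at 12.2 and 8.10, 103 and 59.6, and 9.64 and 14.3 CPM and was called in both effects. Axin2, a canonical target and feedback inhibitor, was at 13.9 and 12.6, 27.2 and 30.2, and 10.8 and 6.85 CPM and fell after Rosi (log2 -1.70, adjusted p = 0.0379).

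iWAT gave few calls in the wider list. Of 40 genes tested in progenitor-like cells edgeR called 0 for the ob effect and 2, both lower, for the Rosi effect, the Dkk co-receptor Kremen1 (80.9 and 82.3 CPM in ob/ob-Veh, 25.3 and 18.3 in ob/ob-Rosi, adjusted p = 0.0101) and the β-catenin cofactor Pygo2 (25.6 and 26.4 against 10.3 and 7.72 CPM, adjusted p = 0.0322). Over all genes 3.75% and 11.9% were called in these contrasts. Of 38 in preadipocyte-like cells 0 were called in either effect (1.02% and 1.03% of all genes). Of 39 in Fmo2 stromal-like cells 0 were called for the ob effect and 1 for the Rosi effect (0.255% and 0.424% of all genes). That gene, Rspo2, had 24.7 and 17.6 CPM in ob/ob-Veh and 0 UMIs in all 4 libraries of WT-Veh and ob/ob-Rosi (adjusted p = 0.0454 for the Rosi effect and 0.077 for the ob effect). Rspo2 passed the filter through ob/ob-Veh alone, so only a call in this direction was possible and nothing is read from it. The sum of WT-Veh replicate 1 held 243361 UMIs, the fewest of these libraries, so its 0 says little.

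Genes whose levels ran most like those of the members were sought over 125 sums of a class in a library, among 12425 genes, by Pearson's r of log2(CPM + 1). These sums share libraries and differ in depth, so the values describe a pattern and no test was made. Wnt2 ran with Pcdh20 (r = 0.85) and Myoc (0.82), and Wnt5a with Ogn (0.88) and Adgrd1 (0.87). Sfrp2 ran with Omd and Cpz (0.85 each), Sfrp4 with Scara3 and Col14a1 (0.85 each) and Sfrp1 with Col6a6 and Pcsk5 (0.82 each). Dkk2 ran with Cyp2f2 (0.83), Wisp2 with B3galt1 (0.76), Dkk3 with Pdzrn3 (0.72) and Rspo3 with Kcnn3 (0.71). Sfrp5 had no close partner, with Abcc9 at 0.49.

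**Figure D4:**
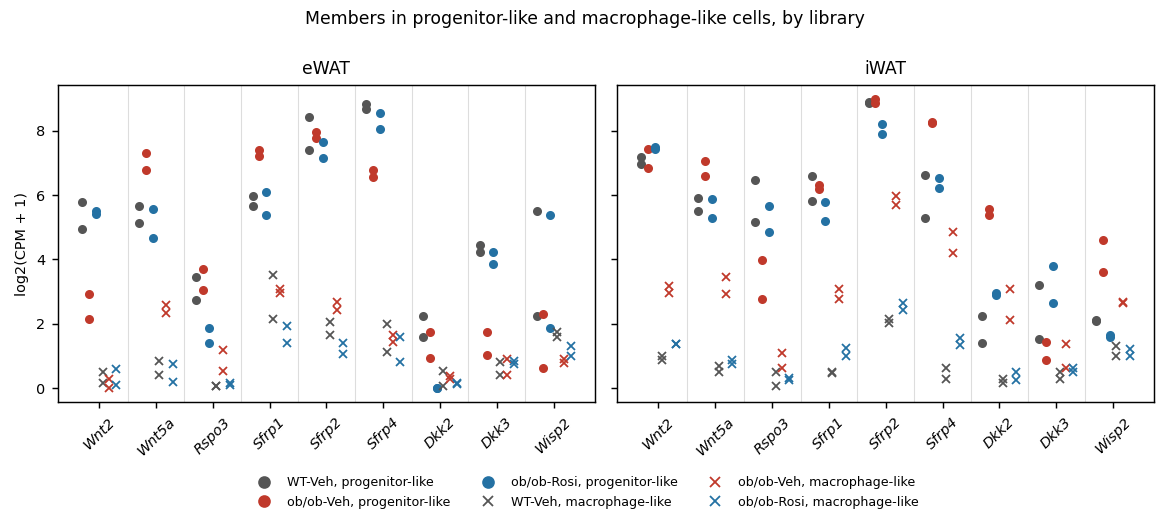
Level of 9 members in progenitor-like cells (circles) and macrophage-like cells (crosses) of each depot, as log2(CPM + 1), 1 mark per library, coloured by group. In iWAT ob/ob-Veh the macrophage-like cells held Sfrp2 at 61.7 and 50.6 CPM and Sfrp4 at 28.0 and 17.5 CPM, against at most 5.22 and 1.96 CPM in the other groups.

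The iWAT macrophage markers within the stromal classes moved the other way from those of eWAT. Their summed level in progenitor-like cells was 277 to 416 CPM in WT-Veh, 713 to 1010.4 in ob/ob-Veh and 436 to 451 in ob/ob-Rosi, and in Fmo2 stromal-like cells 252 to 497, 483 to 787 and 442 to 708 CPM. In progenitor-like cells the macrophage markers were thus highest in ob/ob-Veh, the group in which Wnt5a, Sfrp4 and Dkk2 were highest, while in Fmo2 stromal-like cells the groups overlapped. The step of Dkk2 in progenitor-like cells, to 40.2 and 46.2 CPM, stands beside 3.35 and 7.49 CPM in macrophage-like cells, and that of Sfrp4, to 309 and 303 CPM, beside 28.0 and 17.5 CPM. How much of each step comes from RNA outside the cell was not tested.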

How the data were processed

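Single-cell RNA-seq of SVF was analysed in 12 libraries, 2 biological replicates for each of 3 groups in eWAT and in iWAT. Per the labels and methods, the authors made 10x 3′ v3.1 libraries, ran bcl2fastq 2.19.1.403 and Cell Ranger 3.0.2 against mm10, and deposited raw UMI counts of 31053 genes per barcode for each library, without pooling. In the deposited iWAT counts the largest barcode has 21957 UMIs and none reaches 25% mitochondrial UMIs, so some barcodes had been removed before deposit. In the iWAT files 36 gene symbols differ from the eWAT files.

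The filters of the study's methods were applied (700 to 22000 UMIs, 200 to 6000 genes, under 25% mitochondrial UMIs). Each depot was clustered apart (scanpy 1.11.5 and leidenalg 0.10.2 in Python 3.11.15, 2000 variable genes, 25 components, 20 neighbours, Leiden resolution 1), and APC-like cells again (15 components, resolution 0.6). The 84 Wnt genes of the list were left out of clustering. A cluster of all cells was named from at least 3 markers at 2-fold or more. A cluster of APC-like cells took the class with the highest mean log2 fold of its markers, if at least 3 of them were detected in 10% of its cells, with no 2-fold limit. Of 127 markers 126 were found, and 2 stricter naming rules for APC-like cells were set after clusters and member levels had been seen. Doublets were kept. As an alternative Scrublet calls were removed. Its threshold failed in 4 libraries (eWAT WT-Veh replicate 2, iWAT WT-Veh replicate 1 and both iWAT ob/ob-Rosi libraries), where cells were removed from the highest score down until the expected rate was met. No correction for free RNA was made.

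UMIs of a class were added up within each library (at least 20 cells) and fitted with edgeR 4.0.16 in R 4.3.3 (TMM, filterByExpr, quasi-likelihood test, 3 groups of a depot in 1 fit, 3 residual degrees of freedom), with Benjamini-Hochberg adjustment over all genes. Depot and interaction terms used all 12 libraries. The labels do not say whether an eWAT and an iWAT library came from the same mouse. These fits hold no mouse term and take the 12 libraries as independent. The study tested single cells, which are not replicates here. Alternatives were DESeq2 1.42.0, library size alone, no filter on low counts, thinned cells, doublets removed, other class definitions, a replicate block and each library left out. Scripts were tested on simulated data. eWAT mural-like cells were too few in 2 libraries (15 and 16 cells) to be tested. The members, lists and rules were chosen with earlier results of these data known. Named genes were the 10 members, of the other 74 list genes up to 3 called per direction with the largest change and at least 10 CPM in the higher group, and the 3 genes most like each member. As a check of the labels, Lep and Adipoq were read, the first being a transcript that the Lepob allele leaves in place: eWAT held 30.5 and 79.3 Lep UMIs per 100 of Adipoq in WT-Veh, 3.59 and 10.3 in ob/ob-Veh and 259 and 361 in ob/ob-Rosi, on few Adipoq UMIs. iWAT held 20.5 and 31.4, 33.3 and 14.0, and 164 and 139, where WT-Veh and ob/ob-Veh overlapped.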

Additional observations from a re-analysis of the deposited data

Results flagged for a closer look

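The effects of some members differed between the depots by a test of the difference itself (edgeR, iWAT effect minus eWAT effect, log2). For the ob effect in progenitor-like cells these were Wnt2 (2.88) and Wisp2 (6.05), and for the Rosi effect Wnt2 (-2.53), Rspo3 (4.20) and Wisp2 (-6.26). In Fmo2 stromal-like cells the ob effect of Sfrp2 differed by 3.23. In preadipocyte-like cells that of Wnt2 differed by 7.34, a value on 12 against 1 UMI in eWAT and on iWAT ob/ob-Veh levels below those of T/NK/ILC-like cells, so no depot difference is read from it. The progenitor-like Wnt2 values set a called change in eWAT beside an uncalled one in iWAT. The Wisp2 values rest on eWAT replicates that are far apart. Every call in this paragraph was lost when certain single libraries were left out.

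Members were also found in macrophage-like cells, which the comparisons did not use. In iWAT the mean of the ob/ob-Veh libraries was 56.2 CPM for Sfrp2 and 7.46 CPM for Wnt2, above the WT-Veh means of 3.23 and 0.920 CPM. How much of this is free RNA from stromal cells was not tested.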

How the results depend on the processing

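Over 41 of the 46 called effects of single genes, 730 alternative fits kept the direction and the call in 560 and the direction alone in 168, and 2 reversed, both with all APC-like cells as 1 class: Wisp2 in iWAT progenitor-like cells for the ob effect (-0.41) and Rspo3 in preadipocyte-like cells between depots (1.57). Levels under about 5 CPM rest on few UMIs. Of 120 mean levels, 49 moved by more than the replicate spread with cells assigned singly, 39 with cells thinned to 700 UMIs, 25 without the stricter naming rules and 3 with doublets removed. The 5 depot calls in Fmo2 stromal-like cells are not among these, and of them only the ob effect difference of Sfrp2 was refitted, lost without 8 of 12 libraries. The cause of each change was not tested.

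The number of members called over the progenitor-like and the preadipocyte-like class changed as follows. For the eWAT ob effect, 8 became 2 thinned and 4 with APC-like cells as 1 class, and 5 to 8 without single libraries. For the eWAT Rosi effect, 5 became 8 with no filter, 2 thinned, 10 with cells assigned singly, 8 at resolution 1.2 and 8 without the stricter rules, and 3 to 7 without single libraries. For the iWAT ob effect, 2 became 1 by DESeq2, 1 thinned, 1 with doublets removed and 0 with cells assigned singly, as 1 class, at resolution 1.2 and without the stricter rules, and 0 to 2 without single libraries. For the iWAT Rosi effect, 4 became 2 thinned and 0 as 1 class, and 0 to 5 without single libraries. Against WT-Veh, ob/ob-Rosi had 0 in eWAT under each alternative run (DESeq2 gave most progenitor-like members no adjusted p), and in iWAT 0 became 1 by DESeq2 and 1 with no filter, and 0 to 1 without single libraries. The depot count of 7 became 3 as 1 class and 4 without the stricter rules, and 6 to 8 without single libraries. The 6 depot differences of an effect became 14 by DESeq2, 14 with no filter, 1 thinned and 0 as 1 class, and 0 to 7 without single libraries.

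In Fmo2 stromal-like cells of eWAT, 4 for the ob effect became 1 thinned, 2 at resolution 0.3 and 2 at resolution 1.2 (1 to 5 without single libraries), and 2 for the Rosi effect became 4 with no filter (1 to 3). In those of iWAT, 0 for the ob effect became 1 by DESeq2, 1 by library size alone, 3 with no filter, 2 thinned, 1 with doublets removed and 1 at resolution 1.2 (0 to 1), and 1 for the Rosi effect became 3 with no filter (0 to 2). Resolution 0.3 was not run for the iWAT class. In mesothelial-like cells, 1 for the ob effect became 2 by DESeq2 and 2 with no filter (0 to 1), and 1 for the Rosi effect became 2 with no filter (0 to 1).

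For the other Wnt genes, the 7 of the eWAT ob effect became 11 with no filter, 2 thinned, 18 with cells assigned singly, 14 at resolution 0.3, 12 at resolution 1.2 and 15 without the stricter rules (1 to 7 without single libraries). The 7 of the eWAT Rosi effect became 13 with no filter, 1 thinned, 22 with cells assigned singly, 12 as 1 class, 13 at each of resolutions 0.3 and 1.2 and 14 without the stricter rules (2 to 8). The 0 of the iWAT ob effect became 1 by DESeq2, 6 with no filter, 1 with cells assigned singly and 1 at resolution 0.3 (0 to 8). The 2 of the iWAT Rosi effect became 5 by library size alone, 9 with no filter, 1 thinned, 4 with cells assigned singly, 0 as 1 class, 5 at resolution 0.3 and 1 without the stricter rules (0 to 8). Against WT-Veh, the 0 of iWAT became 1 with no filter (0 to 1).

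The labels give all groups replicate numbers 1 and 2, with no word that a number marks a shared batch, so libraries share only a number. Deviations of same-numbered libraries correlated between groups at 0.128 to 0.303 in the eWAT classes and at -0.020 to 0.534 in iWAT. With a replicate block the members called were 8 and 7 in eWAT and 3 and 5 in iWAT for the ob and Rosi effects, 7 between depots and 13 for the depot differences of an effect. In those classes the calls gained for the ob and Rosi effects were Wisp2 in progenitor-like cells (Rosi effect 3.21, adjusted p = 0.000436) and Sfrp1 in preadipocyte-like cells (Rosi effect -1.65, adjusted p = 0.00574) of eWAT, and Wnt2 in preadipocyte-like cells of iWAT (1.86 and -1.87, adjusted p = 0.0444 and 0.0169). The block gave 4 and 4 in eWAT and 2 and 2 in iWAT Fmo2 stromal-like cells, gaining Wnt2 and Wisp2 for the eWAT Rosi effect (3.83 and 1.32, adjusted p = 0.00364 and 0.016), Wnt2 for both iWAT effects (1.76 and -1.86, adjusted p = 0.0421 and 0.0135) and Sfrp2 for the iWAT ob effect (2.34, adjusted p = 0.00135), and 12, 13, 3 and 8 for the other Wnt genes (eWAT ob, eWAT Rosi, iWAT ob and iWAT Rosi effects).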

Other observations

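Sfrp5 was found in the mural-like cells of eWAT, which were too few to test, at 22.9 and 17.4 CPM in WT-Veh and 53.5 and 10.2 CPM in ob/ob-Rosi on 3 and 2 UMIs, and at 0 UMIs in ob/ob-Veh. These cells were led by Car3, Cidec and Adipoq, so the class holds adipocyte transcripts beside its mural markers.

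Wnt2 inside the iWAT Fmo2 stromal-like cells was at 26.3 and 63.5 CPM in WT-Veh, 211 and 136 in ob/ob-Veh and 24.5 and 33.6 in ob/ob-Rosi in the cluster led by Cilp and Mfap4. The ob/ob-Veh levels of this cluster were above those of the progenitor-like cells of the same libraries. In the cluster led by Fmo2 and Cpe it was at 10.9 and 16.8, 36.8 and 23.8, and 4.12 and 20.2 CPM.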
